A study of Drosophila melanogaster with 6 samples.

Results

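The serine proteases described here, grouped as digestive by their names, are 34 probe sets of the 18769 tested, each naming 1 gene. They were chosen by name: every Jonah gene (13 probe sets), every gene of the trypsin family named with a Greek letter (9), Phae1 and Phae2, Ser6, Ser8 and Ser12, and 7 genes listed by CG number, of which CG30090 now has the symbol Erasp. Most of the genes listed singly had been picked for their difference between the strains. The paper lists all the singly named genes except Ser8 and Ser12 among its differentially expressed proteolysis genes. Values of the strain comparison are therefore given for them as a description and without a test. Of 39 genes that match these names in Release 6, 5 had no probe set that names them alone (gammaTry, deltaTry, Jon99Cii, Jon99Ciii and Jon99Fii) and have no value.

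Trypsins and chymotrypsins are secreted into the gut lumen as inactive precursors, become active when a short leading peptide is cut off, and then cleave dietary protein. Trypsins cut after lysine or arginine, and chymotrypsins after large hydrophobic residues. In the adult fly the enterocytes of the midgut make many of these enzymes from clusters of related genes, and the Jonah genes are a large family of chymotrypsin-like enzymes of this kind.

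Total RNA of whole adult Drosophila melanogaster was measured on GeneChip Drosophila Genome 2.0 arrays, 3 for Canton-S and 3 for D18. Both are wild-type strains and were kept at 25 °C on cornmeal-molasses medium with antibiotic. The sample labels give an age of 3 days, and the methods describe pools of flies of both sexes. All values are log2 values made with the RMA algorithm, which corrects background, normalizes the arrays together and summarises the probes of each set, so that a difference of 1 is a 2-fold difference.

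No array showed the pattern of mixed sexes, with male and female reproductive genes both high by their list medians. Canton-S replicate 3 and D18 replicate 2 had medians of 11.40 and 11.17 over 17 accessory gland genes of the male, against 2.25 to 2.58 for the other 4 arrays. The median of 15 yolk and eggshell genes was 4.09 and 3.64 on that pair, against 11.41 to 12.94 on the other 4. These 2 arrays are therefore called male-pattern arrays, and the other 4 female-pattern arrays, as names for what the arrays show and not for a sex that the labels give. Across all probe sets the arrays of 1 kind correlated at 0.964 to 0.982 for the female pattern and 0.973 for the male pattern, and at 0.716 to 0.762 between the kinds. Each strain holds 1 male-pattern array.

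Most of the proteases were higher in Canton-S. The difference, Canton-S minus D18, was above 0 for 32 of the 34 (background: 42.2% of all probe sets), with a median of 0.63 for the proteases and -0.05 for all probe sets. Every Canton-S array was above every D18 array for 16 of them (background 5.62%), and for 0 was every Canton-S array below every D18 array (background 2.39%). At the thresholds of the methods, an unadjusted p under 0.01 with more than a 2-fold difference in limma, 9 of the 34 passed toward Canton-S (background 1.08%) and 0 toward D18 (background 0.192%). Since the strain comparison chose part of the genes, nothing is read from these counts. With the replicate number as a block 3 passed (background 0.378%), namely Ser6, Phae2 and Erasp. At an adjusted p under 0.05 none passed in limma (background 0.016%), and 14 had an unadjusted p under 0.05 in either direction (background 4.2%). In whole flies, fewer gut cells and less RNA per cell cannot be told apart.

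**Figure D1:**
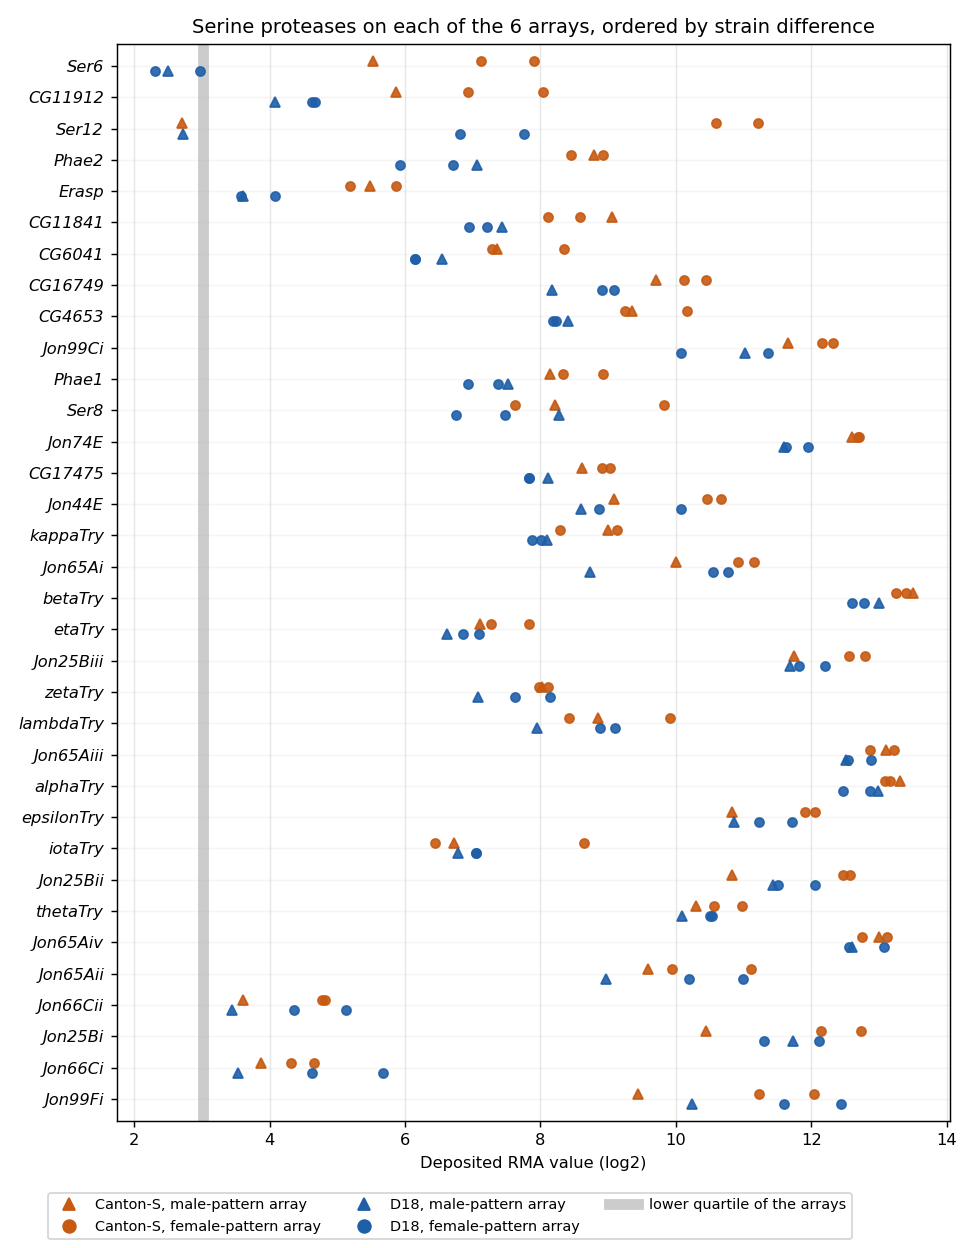
Deposited log2 RMA values of the 34 proteases on each of the 6 arrays (x axis), with 1 row per gene in order of the strain difference. Orange marks Canton-S and blue D18, triangles are male-pattern and circles female-pattern arrays, and the grey band spans the lower quartiles of the arrays (2.96 to 3.09). The orange and blue points are apart for 16 genes, and for Ser12 the triangles of both strains lie below the grey band.

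Ser6 had the widest strain difference of the proteases. It is a serine protease gene on chromosome X (Release 6, 20962605 to 20963505). Its values were 7.90, 7.12 and 5.53 on Canton-S arrays 1, 2 and 3, against 2.30, 2.50 and 2.97 on the D18 arrays. The D18 arrays lay at or below the lower quartile of all probe sets (2.96 to 3.09), near the low end of the scale, and no Canton-S array came close to them. The Canton-S mean was 6.85 ± 1.21 and the D18 mean 2.59 ± 0.34 (SD over 3 arrays each), a difference of 4.26 ± 0.64 (SE) between the deposited values. With D18 so near the low end no fold is given. Within Canton-S the male-pattern array was lowest.

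The tandem genes Phae1 and Phae2, which encode chymotrypsin-like enzymes, lie within 2.8 kb on 2L (Release 6, 12109417 to 12112256). Phae2 had 8.92, 8.45 and 8.80 in Canton-S and 6.70, 7.06 and 5.92 in D18. Phae1 had 8.92, 8.33 and 8.14 in Canton-S and 7.37, 7.53 and 6.93 in D18. Both genes were separated by strain without overlap. The difference was 2.16 ± 0.35 for Phae2 and 1.19 ± 0.30 for Phae1 (SE), or 4.47-fold and 2.29-fold.

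All 7 genes listed by CG number were higher on every Canton-S array than on any D18 array. They encode proteins of the trypsin fold, and 6 of them passed the thresholds, on the comparison that picked them. CG11912 had 8.05, 6.94 and 5.86 in Canton-S and 4.67, 4.08 and 4.63 in D18, a difference of 2.49 ± 0.58 (SE). The Canton-S male-pattern array was again the lowest of its strain. Erasp had 5.87, 5.19 and 5.48 in Canton-S and 4.08, 3.61 and 3.58 in D18, a difference of 1.76 ± 0.27. CG11841 had 8.59, 8.11 and 9.06 in Canton-S and 7.22, 7.43 and 6.94 in D18, a difference of 1.39 ± 0.31. For Erasp and CG11841 the male-pattern array of Canton-S was not the lowest of its strain. CG6041 had 8.35, 7.28 and 7.36 in Canton-S and 6.15, 6.54 and 6.14 in D18, with a difference of 1.38 ± 0.36. CG16749 had 10.44, 10.12 and 9.70 in Canton-S and 9.08, 8.16 and 8.91 in D18, with a difference of 1.37 ± 0.34. The gap between the strains of CG16749 was at its narrowest between Canton-S replicate 3 and D18 replicate 1. CG4653 had 10.17, 9.25 and 9.36 in Canton-S and 8.23, 8.41 and 8.18 in D18, and its difference was 1.31 ± 0.30.

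The thresholds lay close to several genes. Phae1, at 1.19 and 2.29-fold, had the narrowest difference of the genes that passed. Jon99Ci, at 1.23 ± 0.40, differed by more than Phae1 but did not reach the p threshold, and its values were 12.32, 12.17 and 11.65 in Canton-S and 11.36, 11.02 and 10.08 in D18. CG17475 and Jon74E fell just under 2-fold in this fit. The paper lists both among its differentially expressed proteolysis genes, so its calls and this fit differ for them. CG17475 had 9.03, 8.91 and 8.61 in Canton-S and 7.83, 8.11 and 7.84 in D18, at 1.90-fold. Jon74E had 12.69, 12.71 and 12.60 in Canton-S and 11.62, 11.60 and 11.95 in D18, at 1.92-fold. In all 3 of these genes the strains did not overlap. Leaving out 1 array at a time, Ser6, Phae2 and Erasp passed in all 6 fits, and Phae1 and CG6041 in none, so that each of the 6 arrays was needed for those calls.

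The Jonah and trypsin families were taken whole by symbol, not by their strain difference. Of the 13 Jonah genes 11 were higher in Canton-S on average (background 42.2%). The count was 10 with quantile normalization and 8 with the arrays shifted to a common median. Their median difference was 0.29, with a range of -0.53 to 1.23. For 2 (Jon74E and Jon99Ci) every Canton-S array was above every D18 array (background 5.62%). None of the 13 passed the thresholds in this fit (background 1.08% toward Canton-S), though the paper lists Jon74E as differentially expressed. Ser8, a gene on 2R, had 9.82, 7.63 and 8.21 in Canton-S and 7.48, 8.27 and 6.76 in D18, a difference of 1.05 ± 0.69. One D18 array thus lay above 2 of the Canton-S arrays. Jon44E had 10.47, 10.67 and 9.08 in Canton-S and 10.07, 8.61 and 8.86 in D18, a difference of 0.89 ± 0.60 with overlap.

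The 9 trypsin genes with values lie within 20.7 kb on 2R (Release 6, 11336840 to 11357537), in the order lambdaTry, kappaTry, zetaTry, etaTry, thetaTry, alphaTry, epsilonTry, betaTry and iotaTry. Between betaTry and iotaTry lie gammaTry and deltaTry, which have no value. All 9 were higher in Canton-S on average (background 42.2%), by 0.24 to 0.82 with a median of 0.42. For 4 every Canton-S array was above every D18 array (background 5.62%). None passed the thresholds (background 1.08% toward Canton-S). The gene with the widest difference was kappaTry, with 9.14, 8.29 and 9.002 in Canton-S and 7.88, 8.09 and 8.01 in D18. For betaTry the values were 13.26, 13.39 and 13.50 in Canton-S and 12.60, 12.99 and 12.79 in D18, a difference of 0.59 ± 0.20. The range over arrays was narrow for that gene, near the upper end of the scale. The pattern of alphaTry was the same, with 13.10, 13.16 and 13.32 in Canton-S and 12.46, 12.98 and 12.87 in D18. By contrast iotaTry had 8.64, 6.45 and 6.73 in Canton-S and 7.05, 6.79 and 7.04 in D18, so that its average rested on Canton-S replicate 1, and without that array its difference had the other sign, at -0.37.

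**Figure D2:**
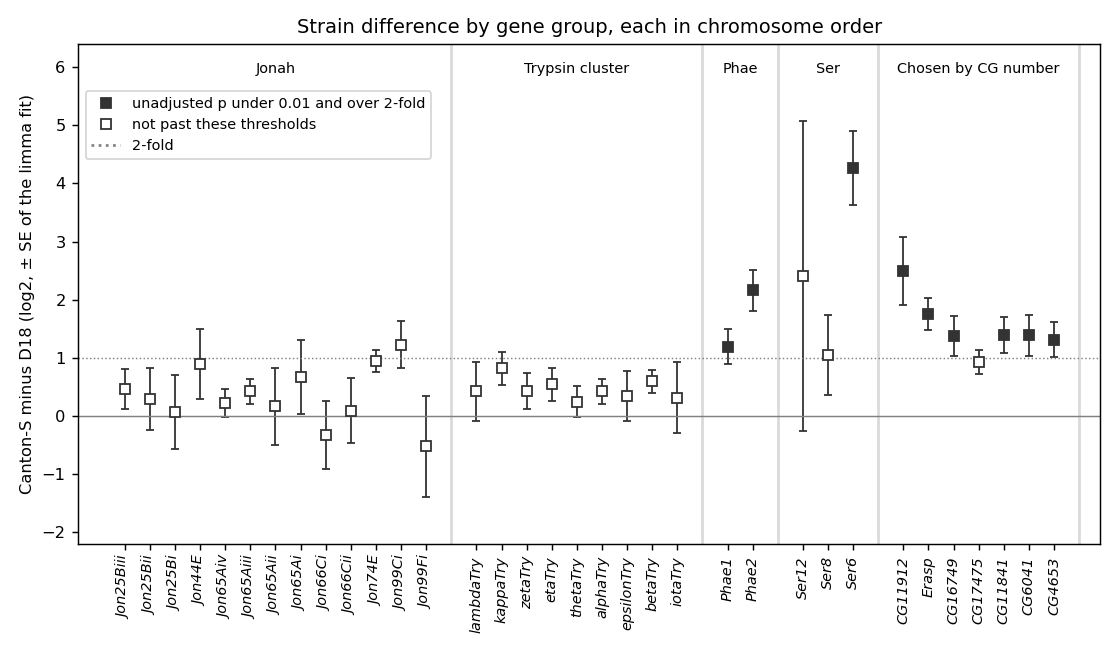
Strain difference, Canton-S minus D18, in log2 units with the SE of the limma fit (y axis) for each protease, grouped by family and in chromosome order within a family. Filled squares passed the thresholds of the methods (over 2-fold with an unadjusted p below 0.01) and open squares did not. The 9 filled squares are Phae1, Phae2, Ser6 and 6 genes listed by CG number, while the 9 trypsin genes lie between 0.24 and 0.82.

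The level of the proteases also varied with the array. The median of the 34 was 10.05, 9.68 and 9.07 on Canton-S arrays 1, 2 and 3 and 8.56, 8.22 and 8.52 on the D18 arrays. Canton-S replicate 1 was the highest array of its strain for 21 genes, and Canton-S replicate 3, the male-pattern array, the lowest for 20. In D18 the male-pattern array, replicate 2, was the lowest of its strain for 19 genes. Between genes the strain difference and the mean level correlated at -0.454 (n = 34, all read from the same arrays), a description only. The median residual SD was 0.4497 for the proteases and 0.431 for all probe sets with strain as the only factor, and 0.386 and 0.225 with the kind of array added.

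The kind of array was then compared in a limma model with strain, male-pattern minus female-pattern. The names of the proteases were not chosen by this difference, but the kinds were read from reproductive genes on these arrays, and only 2 arrays have the male pattern. At an adjusted p under 0.05, 8 of the 34 proteases were lower on the male-pattern arrays (background 30.6% of all probe sets) and 0 were higher (background 14.9%), which makes 8 in either direction (background 45.5%). At an unadjusted p under 0.05 the counts in limma were 13 lower (background 39.2%) and 1 higher (background 17.1%). By sign alone 28 of the 34 were lower (background 69.2%). The called shares are no larger than those of all probe sets, while the share lower by sign is larger. None of these counts is read as a result about the proteases as a group. The 2 male-pattern arrays were below all 4 others for 10 proteases (background 47.3%) and above all 4 for 0 (background 17.4%). The median difference was -0.43 for the proteases and -0.33 for all probe sets. With the replicate number as a block 4 were lower (background 14.8%), namely Ser12, Jon99Fi, Jon65Ai and Jon65Aii.

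Ser12 differed most between the kinds of array. This gene on 2L had 2.71 and 2.72 on the male-pattern arrays of Canton-S and D18, against 10.60 and 11.21 on the female-pattern arrays of Canton-S and 7.76 and 6.81 on those of D18. Both male-pattern values lay below the lower quartile of all probe sets, whichever the strain. The difference was -6.38 ± 0.81 (SE; limma adjusted p = 0.00142). The next in size was Jon99Fi, at -1.99, and whether Ser12 acts in digestion was not tested.

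Of the Jonah family all 13 genes were lower on the male-pattern arrays on average (11 with quantile normalization), with a median difference of -1.03, and 5 were called at an adjusted p under 0.05. Among all probe sets 69.2% were lower by sign and 30.6% were called lower, so the 5 of 13 are near the background and not a result about the family. Jon99Fi had 9.44 and 10.24 on the male-pattern arrays of Canton-S and D18, against 11.22, 12.04, 11.60 and 12.44 on the female-pattern arrays, a difference of -1.99 ± 0.34 (limma adjusted p = 0.00476). Jon65Ai had 10.00 and 8.74 on the male-pattern arrays, against 10.92, 11.15, 10.77 and 10.55 on the female-pattern arrays, a difference of -1.48 ± 0.24 (limma adjusted p = 0.00413). In both genes the kinds did not overlap, and leaving out any 1 of the 6 arrays kept both calls, as it did that of Ser12. Jon66Cii had 3.61 and 3.45 on the male-pattern arrays, against 4.81, 4.77, 5.12 and 4.37 on the female-pattern arrays, a difference of -1.24 ± 0.24 (limma adjusted p = 0.00754). Its neighbour Jon66Ci had 3.87 and 3.53 on the male-pattern arrays, against 4.31, 4.66, 5.68 and 4.63 on the female-pattern arrays (limma adjusted p = 0.0531). This pair lay below the median of all probe sets on every array except D18 replicate 1, where that median was 4.92.

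Jon65Aii, which lies next to Jon65Ai, had 9.59 and 8.97 on the male-pattern arrays, against 9.94, 11.12, 10.20 and 10.99 on the female-pattern arrays, at -1.28 ± 0.41 (limma adjusted p = 0.0452). Jon44E had 9.08 and 8.61 on the male-pattern arrays, against 10.47, 10.67, 10.07 and 8.86 on the female-pattern arrays, at -1.17 ± 0.36 (limma adjusted p = 0.0411), with overlap of the kinds. The calls of both genes were kept in 1 of the 6 fits that left out an array. Outside the family, epsilonTry had 10.83 and 10.85 on the male-pattern arrays, against 12.06, 11.91, 11.72 and 11.22 on the female-pattern arrays, without overlap. Its difference was -0.88 ± 0.22 (limma adjusted p = 0.0205), and that of CG16749, whose kinds overlapped, was -0.70 ± 0.17 (limma adjusted p = 0.0200).

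Neighbours in a Jonah cluster did not all differ alike. In the Jon65A cluster on 3L, which spans 15.3 kb (Release 6, 6039155 to 6054443), Jon65Ai and Jon65Aii passed, while Jon65Aiii and Jon65Aiv differed by -0.07 and -0.08. In the Jon25B cluster on 2L, Jon25Bii differed by -1.03 ± 0.34 (limma adjusted p = 0.0509), with 10.82 and 11.43 on the male-pattern arrays, against 12.57, 12.47, 12.05 and 11.51 on the female-pattern arrays. Jon25Bi, beside it, had 10.45 and 11.72 on the male-pattern arrays, against 12.73, 12.15, 12.12 and 11.31 on the female-pattern arrays, with overlap. It differed by -0.99 ± 0.50 and Jon25Biii by -0.63 ± 0.22, and neither passed. For Jon25Bi the difference rested on Canton-S replicate 3, since without that array it was 0.01.

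**Figure D3:**
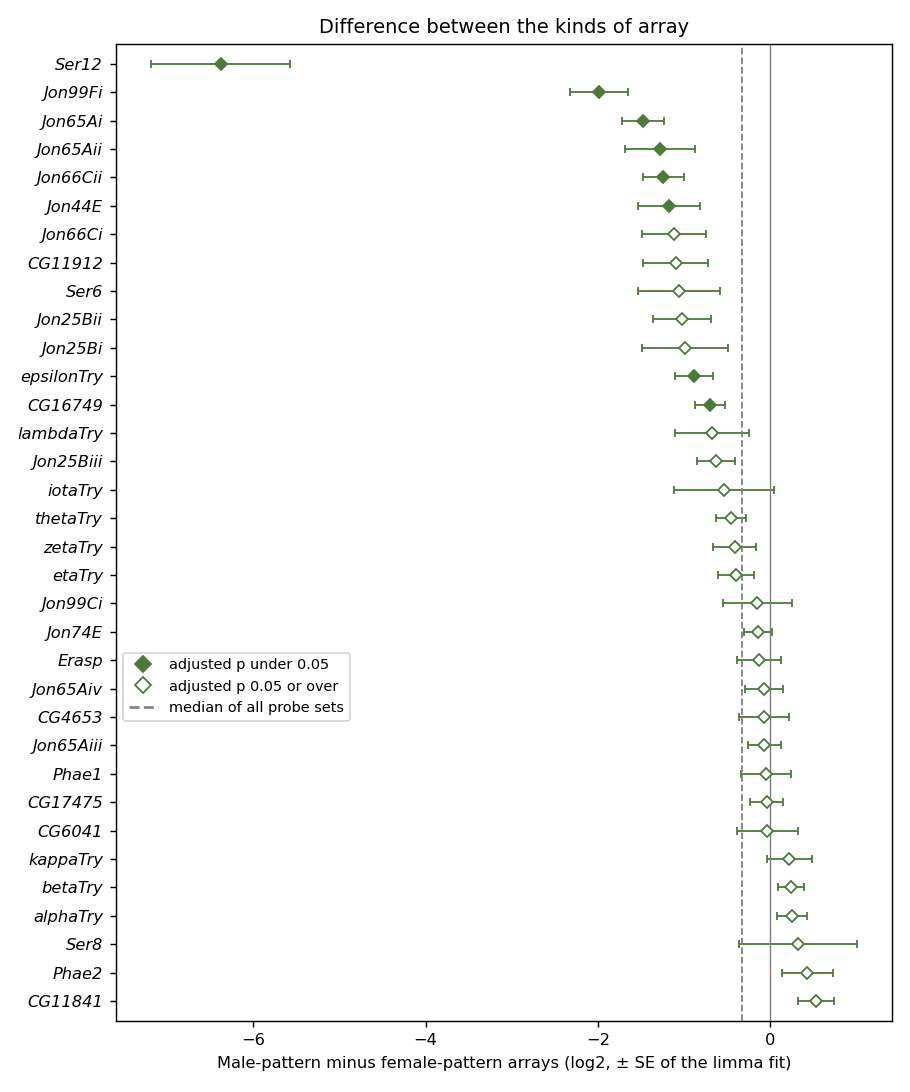
Difference between the kinds of array, male-pattern minus female-pattern, in log2 units with the SE of the limma fit (x axis), with 1 row per protease in order of the difference. Filled diamonds had an adjusted p under 0.05 over all probe sets, open ones did not, and the dashed line marks the median of all probe sets at -0.33. Ser12 stands apart at -6.38, and the other 7 filled points lie between -1.99 and -0.70.

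The strain difference was also taken within each kind of array. On the 4 female-pattern arrays its median was 0.74 and 11 proteases passed the thresholds toward Canton-S (background 2.23%), with both Canton-S arrays above both D18 arrays for 25 (background 19%). Between the 2 male-pattern arrays, where there is 1 array a strain and no test, the median difference was 0.55. The difference pointed toward Canton-S within both kinds for 25 of the 34 (background 23.2%). Across the 34 genes the 2 differences correlated at 0.555, a description over genes that share their arrays. These are again values of the strain comparison, and no test is drawn from them. With the kind of array as a factor in the model of all 6 arrays, 9 passed the thresholds (background 1.95%), the same genes as before.

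Whether the strain difference itself differed between the kinds was tested as an interaction in limma. At an adjusted p under 0.05, 0 of the 34 passed (background 0.0213%), and 4 had an unadjusted p under 0.05 (background 5.37%): Ser12, Jon25Bi, Jon25Bii and Ser6. With 2 residual degrees of freedom the fit has little power, and values that miss the threshold do not show that the kinds were alike. The Ser12 difference between the strains was -0.01 on the male-pattern arrays and 3.61 on the female-pattern arrays. Since both male-pattern values of Ser12 lay below the lower quartile of all probe sets, a strain difference could not have been measured there, and its interaction is not read as a change in the strain difference. The Ser6 difference was 3.03 on the male-pattern arrays and 4.88 on the female-pattern arrays, in the same direction. For Jon25Bi it was -1.28 on the male-pattern arrays and 0.73 on the female-pattern arrays, and for Jon25Bii -0.61 and 0.74, so that both genes were lower in Canton-S only between the male-pattern arrays.

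**Figure D4:**
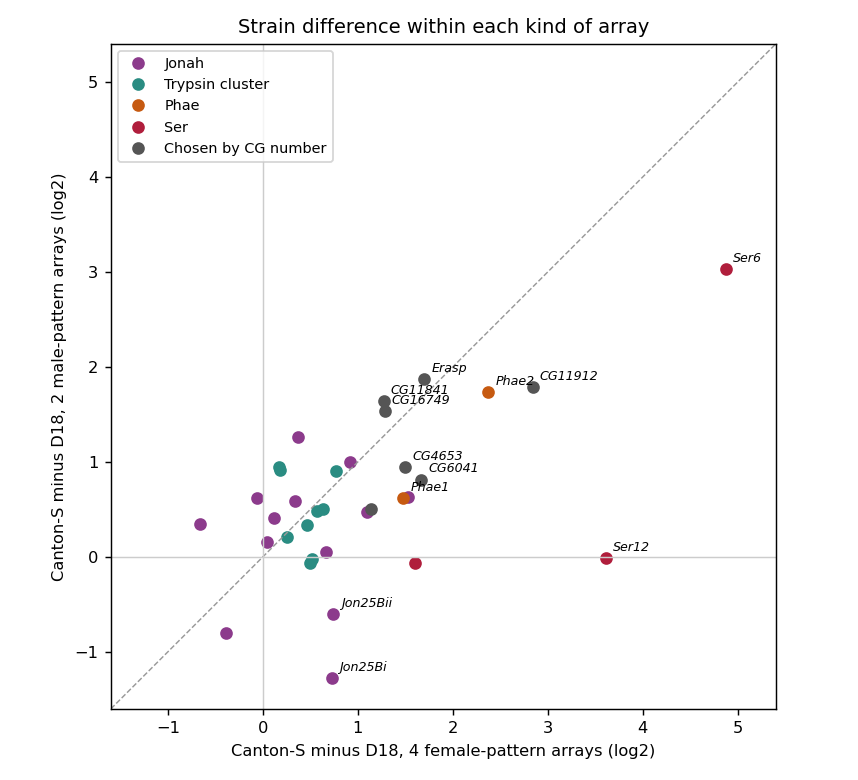
Strain difference, Canton-S minus D18, in log2 units within the 4 female-pattern arrays (x axis) against that between the 2 male-pattern arrays (y axis), with 1 point per protease coloured by family. The dashed line marks equal differences. Ser6 has the largest value on both axes (4.88 and 3.03), and Ser12 lies at 3.61 and -0.01.

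Ser12 was followed along the chromosome by genes that were also lower on the male-pattern arrays. It stands first of 4 protein-coding genes within 4.6 kb on 2L (Release 6, 2250431 to 2255050), of which the last is Send1, which encodes a spermathecal endopeptidase. Send1 had 2.57 and 2.38 on the male-pattern arrays of Canton-S and D18, against 9.76 and 10.27 on the female-pattern arrays of Canton-S and 7.07 and 6.05 on those of D18. The genes between them, CG17239 and CG17234, were named after their values were seen. CG17239 had 3.64 and 4.03 on the male-pattern arrays, against 9.36 and 9.78 on the female-pattern arrays of Canton-S and 8.50 and 7.28 on those of D18. CG17234 had 2.09 and 2.42 on the male-pattern arrays, against 5.72 and 5.01 on the female-pattern arrays of Canton-S and 7.29 and 6.32 on those of D18. All 4 genes were lower on both male-pattern arrays than on any female-pattern array, as were 47.3% of all probe sets. The order of the strains on the female-pattern arrays was not the same in the 4 genes. Ser12, CG17239 and Send1 were higher in Canton-S and CG17234 was higher in D18. Send2, the other spermathecal endopeptidase gene, lies elsewhere on 2L and was also higher in D18 on those arrays, with 5.29 and 4.95 in Canton-S and 6.96 and 5.85 in D18.

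**Figure D5:**
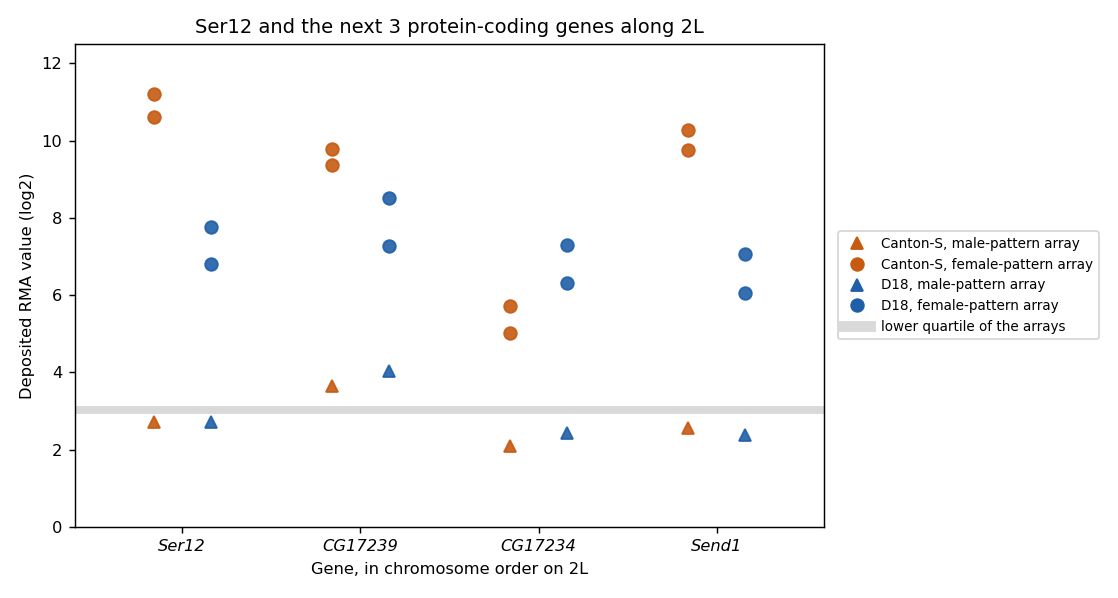
Deposited log2 RMA values (y axis) of Ser12 and the next 3 protein-coding genes in their order on 2L. Orange marks Canton-S and blue D18, triangles are male-pattern and circles female-pattern arrays, and the grey band spans the lower quartiles of the arrays. The triangles lie below the circles in all 4 genes, and the circles of CG17234 have D18 above Canton-S.

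Other gene groups of the gut were set beside the proteases. Of 11 regulators and structural genes of the midgut, 9 were higher in Canton-S on average (42.2% of all probe sets), with a median difference of 0.90. In this list mex1, a gene expressed in the midgut, and Ptx1, a homeobox gene of the midgut, passed the thresholds (1.08% of all probe sets). The values of mex1 were 10.73, 9.82 and 10.06 in Canton-S and 8.70, 8.64 and 8.76 in D18, without overlap. Those of Ptx1 were 7.87, 8.04 and 8.03 in Canton-S and 6.39, 7.17 and 7.10 in D18, again without overlap. The summed linear level of the 11 genes was 3733 to 6103 on the Canton-S arrays and 3019 to 3605 on the D18 arrays. Such a sum weighs the genes of highest level most, here Peritrophin-15a, mex1 and cad. Of these, cad was lower on the male-pattern arrays, at -1.17 (limma adjusted p = 0.0162). Of the 11 genes 4 did not overlap between the strains (GATAe, Ptx1, mex1 and Mur29B), all higher in Canton-S (5.62% of all probe sets). Vha100-4 differed by 0.04, and cad and Peritrophin-A were higher in D18 on average, at -0.36 and -0.42. Whether a different amount of midgut contributes to their strain difference was not tested.

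Genes that digest other food components varied. Of 9 genes of lipid digestion 0 passed the thresholds (1.08% of all probe sets toward Canton-S and 0.192% toward D18). Their median difference was 1.32, and 8 of the 9 were higher in Canton-S on average (42.2% of all probe sets). For 2 of them every Canton-S array was above every D18 array (5.62% of all probe sets). The predicted lipase gene CG6283 was highest at 3.68 ± 1.31 (SE). Its D18 values of 7.76, 10.31 and 5.11 spread widely, against 11.95, 11.20 and 11.07 in Canton-S. Of 3 lysozyme genes LysX passed (1.08% of all probe sets), with 6.95, 8.23 and 7.12 in Canton-S and 5.02, 3.19 and 4.26 in D18. All 3 were higher in Canton-S on average (42.2% of all probe sets). Of 18 genes of carbohydrate digestion 0 passed toward Canton-S and 1 toward D18 (1.08% and 0.192% of all probe sets), and their median was 0.27. The gene that passed, the alpha-glucosidase gene tobi, had 4.05, 3.44 and 2.84 in Canton-S and 8.44, 10.66 and 6.47 in D18, opposite to most proteases. On average 11 of the 18 were higher in Canton-S (42.2% of all probe sets). Among them Mal-A7 differed by 3.12 ± 1.34 and Mal-A8 by 3.07 ± 1.06 (SE), short of the thresholds.

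In the lists of serine proteases and inhibitors outside digestion 0 genes passed the strain thresholds, as in the Jonah and trypsin families. Among all probe sets 1.08% passed toward Canton-S and 0.192% toward D18, so counts of 0 here are not a result. Of 16 clip-domain, immune and developmental proteases 0 passed, and the median difference was -0.14. On average 6 of the 16 were higher in Canton-S (42.2% of all probe sets). Of 28 serpins, which inhibit serine proteases, 0 passed, and the median was 0.27. Of these serpins 22 were higher in Canton-S on average (42.2% of all probe sets), and 3 had every Canton-S array above every D18 array (5.62%). At an adjusted p under 0.05 in limma, 6 of the 16 proteases were called lower on the male-pattern arrays (30.6% of all probe sets). By sign 15 were lower (69.2% of all probe sets). Of the serpins 13 were called higher (14.9% of all probe sets) and 1 lower (30.6%). Of 6 proteases linked to the spermatheca or to sex peptide, Send1 and Send2 were called lower on the male-pattern arrays (30.6% of all probe sets) and 3 higher (14.9%).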

How the data were processed

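The authors processed the 6 scans in Transcriptome Analysis Console 4.0.2 with the RMA algorithm at default parameters and deposited log2 values. The array was designed on Release 3.1, and positions here are those of Release 6. Of 18952 probe sets 183 controls were left out, and of the rest 13647 name 1 gene, 402 several and 4720 none. The members and gene lists were chosen with earlier results of these data known, and the rule for named genes gave the genes with the widest differences, the threshold neighbours and those that the study names.

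Fits were made with lmFit and eBayes in limma 3.58.1 (R 4.3.3) over 18769 probe sets, with Benjamini-Hochberg adjustment. Strain was the only factor of the main fit, and the thresholds are those of the methods, which state no model. The kind of array was tested with strain in the model. Replicate numbers were read as extraction repeats, since both strains were extracted together with an interval between repeats. Deviations from the strain means correlated at 0.777, -0.93 and -0.861 for numbers 1, 2 and 3, where the male-pattern arrays weigh most. In the main strain fit the p-values measure a spread over 3 biological repeats a strain that includes the difference between the kinds of array. The fit for the kind of array compares 2 arrays with 4, and the interaction has 1 male-pattern array a strain. The number of arrays limits the precision. Alternatives were the replicate block, quantile and median scaling, a filter on the lowest 40%, a variance trend, no moderation, array weights, single-transcript probe sets, other thresholds and each array left out. Plots used matplotlib 3.10.9, pandas 2.3.3 and numpy 2.4.6 under Python 3.11.15.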

Additional observations from a re-analysis of the deposited data

Results flagged for a closer look

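The strain difference (Canton-S minus D18) of 4 proteases differed between the male-pattern and the female-pattern arrays at an unadjusted p under 0.05 in the limma interaction, and none of them did after adjustment over all probe sets. Male-pattern minus female-pattern, the change in the strain difference was -3.63 ± 0.68 (SE) for Ser12 (limma adjusted p = 0.555). It was -2.004 ± 0.62 for Jon25Bi (limma adjusted p = 0.814) and -1.35 ± 0.43 for Jon25Bii (limma adjusted p = 0.833). For Ser6 it was -1.85 ± 0.63 (limma adjusted p = 0.880). Each value rests on 1 male-pattern array a strain. Both male-pattern values of Ser12, 2.71 in Canton-S and 2.72 in D18, lay below the lower quartile of all probe sets, so its value restates the strain difference on the female-pattern arrays. The D18 values of Ser6 also lay at or below that quartile on every array.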

How the results depend on the processing

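The count of proteases past the strain thresholds was 9, and it was 3 with the replicate block, 3 with arrays shifted to a common median and 3 without moderation, in each case Ser6, Phae2 and Erasp. It was 15 with array weights, a fit that did not converge, 14 at an unadjusted p under 0.05 with over 1.5-fold, 0 at an adjusted p under 0.05, and 3 to 6 with 1 array left out. On the 4 female-pattern arrays the count of 11 was 1 without moderation and 6 to 14 with 1 array left out. The count of 8 called between the kinds of array was 4 with the replicate block (background 14.8%), 19 with a common median and 2 without moderation. Counted in either direction, it was 13 with array weights, 4 at an adjusted p under 0.01, and 4 to 10 with 1 array left out. The share over all probe sets was not counted with a common median, no moderation, array weights, an array left out, 1.5-fold or an adjusted p under 0.01. Counts in those settings are not read as results about the proteases. The difference of Jon25Bi between the kinds was -0.99, and -1.993 to 0.01135 with 1 array left out, turning sign without Canton-S replicate 3. For the interaction the count was 0 in every fit made, and fits without Canton-S replicate 3 or D18 replicate 2 could not be made. The pairing by replicate number sets each male-pattern array beside a female-pattern one, and no block was possible for the 4-array and interaction fits, which have too few shared numbers or degrees of freedom. Scaling to a common median moved the median of all probe sets from -0.05 to -0.22 for strain and from -0.33 to -0.80 for the kind of array, and of the 34 proteases 29 were then higher in Canton-S and 33 lower on male-pattern arrays, against 32 and 28. Probes of close paralogs can share signal, and low RMA values understate differences.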

Other observations

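The Jon65A region of 3L holds yip7 and CG10477, which were named after their values were seen and are not among the 34. The values of yip7 were 12.68, 13.12 and 13.07 in Canton-S and 12.40, 12.59 and 13.10 in D18, with overlap. CG10477 had 10.35, 9.28 and 10.41 in Canton-S and 7.95, 9.71 and 8.65 in D18, and the male-pattern array was the highest of the 3 in each strain, unlike Jon65Ai.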
